A study of Mus musculus with 7 samples.

Results

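The genes of the endoplasmic reticulum (ER) stress and integrated stress responses were followed in sorted mouse sarcoma cells. There were 42 such genes among the 35727 genes of the deposited table, chosen by name as sensors and transcription factors of the unfolded protein response, ATF4 target genes, and genes for folding, transport and degradation in the ER. The choice was made with earlier results of these data known. The libraries were polyA RNA-seq of tumour cells carrying red fluorescent protein (RFP), sorted out of tumours. Both models studied form undifferentiated pleomorphic sarcoma, a tumour of soft tissue with no clear line of differentiation. Of the 7 libraries, 3 were labelled p53KO Vgll3 OE and 4 were labelled p53KO Ccne1 OE. Both groups shared the p53 knockout and the C57/Bl6 background. Mesenchymal stem cells of female knockout mice had received a retroviral vector for Vgll3, a cofactor of TEAD transcription factors, or for Ccne1, the cyclin that drives entry into S phase. Each was then carried through 2 rounds of subcutaneous tumours in wild-type females, grown shortly in culture as a tumour cell line and transplanted again. Each model is 1 cell line in the labels, so the transduced gene and other differences between the lines cannot be told apart. The labels give neither the age of the animals nor the promoter of the vector. They do not say either that the libraries came from separate tumours or animals. The p-values therefore rest on the spread between libraries alone, and that spread may be technical in part.

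Secretory cells fold new proteins in the ER, and when unfolded protein builds up there, the sensors IRE1 (gene Ern1), PERK (Eif2ak3) and ATF6 raise the output of chaperones and of the machinery that removes misfolded protein. PERK and GCN2 (Eif2ak4), the kinase that senses amino acid shortage, both phosphorylate the initiation factor eIF2, which slows translation in general and favours that of ATF4; ATF4 with its partner CHOP (Ddit3) then switches on genes for amino acid synthesis, amino acid transport and tRNA charging. Cells that secrete much collagen keep a large ER and use these genes also without added stress. Gene counts show neither the phosphorylation of eIF2, nor the cutting of ATF6, nor the splicing of Xbp1 by IRE1.

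Promoter sequences are shown first, since each of the transcription factors is known for a DNA element. RefSeq promoters of build GRCm38.p6, from 250 bases before to 50 after a start site, were matched for 35 of the 42 genes; Atf6, Creb3l1, Ppp1r15b, Nars, Manf, Hyou1 and Derl1 had none. They were searched on both strands for 4 elements. The ER stress element ERSE is CCAAT, any 9 bases and CCACG, and ERSE-II is ATTGG, any base and CCACG. The unfolded protein response element UPRE is TGACGTGG, and the C/EBP-ATF response element CARE is TGATGNAA. ERSE and ERSE-II both hold CCACG, but none of the matches below was counted under both names. CARE stood in the promoters of 8 of these genes, against 1304 of all 32851 promoters (3.97%), and ERSE in 9, against 39 (0.119%). ERSE-II was found in 2, Dnajb11 and Herpud1, against 12 (0.0365%), and UPRE in 0, against 222 (0.676%). The first number of each pair counts genes, some of which have more than 1 promoter, and the second counts promoters, theirs included. The genes were chosen by name for these pathways, in part as ATF4 targets, so their share is not independent of the elements. A match is a description of the letters and not a test of binding. The first 3 promoters below belong to ATF4 target genes that hold CARE and differed in direction. The next 2 hold ERSE, and of these genes one was lower and one higher in the Vgll3-labelled libraries. The last holds both CARE and ERSE-II. Each runs 5′ to 3′ along its gene, with the matches in capitals. A CARE on the opposite strand appears as its reverse complement.
Asns, chr6:7693160-7693459, minus strand: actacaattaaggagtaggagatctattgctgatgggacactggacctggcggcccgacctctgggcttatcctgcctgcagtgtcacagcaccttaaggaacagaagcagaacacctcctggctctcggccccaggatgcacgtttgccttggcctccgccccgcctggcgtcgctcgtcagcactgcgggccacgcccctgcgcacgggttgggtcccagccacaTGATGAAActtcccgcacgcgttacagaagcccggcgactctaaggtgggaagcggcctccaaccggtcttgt
Trib3, chr2:152344011-152344310, minus strand: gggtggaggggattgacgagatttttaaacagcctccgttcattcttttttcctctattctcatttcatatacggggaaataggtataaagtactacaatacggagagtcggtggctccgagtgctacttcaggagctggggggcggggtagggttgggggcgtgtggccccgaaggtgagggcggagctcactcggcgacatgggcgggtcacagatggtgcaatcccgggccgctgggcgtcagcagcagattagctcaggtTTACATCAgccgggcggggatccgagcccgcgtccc
Chac1, chr2:119350992-119351291, plus strand: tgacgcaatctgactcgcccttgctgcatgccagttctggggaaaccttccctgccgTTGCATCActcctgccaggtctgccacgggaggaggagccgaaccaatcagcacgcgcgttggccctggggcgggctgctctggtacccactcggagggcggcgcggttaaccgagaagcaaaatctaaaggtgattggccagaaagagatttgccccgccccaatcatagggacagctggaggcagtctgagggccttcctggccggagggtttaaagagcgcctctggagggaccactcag
Hspa5, chr2:34771840-34772139, plus strand: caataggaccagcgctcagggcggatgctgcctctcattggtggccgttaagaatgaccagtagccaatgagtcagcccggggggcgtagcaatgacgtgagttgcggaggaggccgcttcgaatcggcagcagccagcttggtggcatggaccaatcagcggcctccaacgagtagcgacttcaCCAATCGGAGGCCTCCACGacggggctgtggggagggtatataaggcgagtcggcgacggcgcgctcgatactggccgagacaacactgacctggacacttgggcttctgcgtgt
Syvn1, chr19:6046326-6046625, plus strand: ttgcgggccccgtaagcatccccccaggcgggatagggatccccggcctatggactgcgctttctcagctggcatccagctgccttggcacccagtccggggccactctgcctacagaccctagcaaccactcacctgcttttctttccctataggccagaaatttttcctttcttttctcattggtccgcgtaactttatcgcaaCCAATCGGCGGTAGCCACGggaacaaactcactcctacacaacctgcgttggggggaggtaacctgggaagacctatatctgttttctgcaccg
Herpud1, chr8:94386179-94386478, plus strand: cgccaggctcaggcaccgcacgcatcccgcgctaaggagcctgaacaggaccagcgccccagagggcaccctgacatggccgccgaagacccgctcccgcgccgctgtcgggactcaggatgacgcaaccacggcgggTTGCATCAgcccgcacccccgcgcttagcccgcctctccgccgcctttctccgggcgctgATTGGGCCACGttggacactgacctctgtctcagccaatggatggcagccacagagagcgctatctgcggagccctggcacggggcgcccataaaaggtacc

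The CARE of Asns lay 23 to 16 bases before the start site, that of Trib3 15 to 22 bases after it, and that of Chac1 193 to 186 bases before it. The other CARE genes were Nupr1, Vldlr, Aars (with 2 matches), Gars and Herpud1. Among all 281 tested genes with a CARE in this window, 29.2% were higher and 24.2% lower in the Vgll3-labelled libraries by the test given below. Among the 17 tested genes with ERSE, 35.3% were higher and 29.4% lower. The 10 ERSE matches of the 9 genes, written along the strand that holds the motif, share their ends (capitals) and differ in the 9 bases between.
Hspa5: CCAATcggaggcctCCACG
Hsp90b1, first match: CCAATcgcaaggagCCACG
Hsp90b1, second match: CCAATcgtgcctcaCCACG
Canx: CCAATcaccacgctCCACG
Pdia6: CCAATgaaaggcggCCACG
Ero1lb: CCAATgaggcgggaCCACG
Dnajc3: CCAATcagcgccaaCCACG
Creld2: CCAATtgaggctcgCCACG
Syvn1: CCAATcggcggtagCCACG
Derl3: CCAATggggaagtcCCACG

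Library totals lay between 26433220 and 47504434 counts for Vgll3-labelled libraries and between 21725890 and 53610300 for Ccne1-labelled ones. Levels are CPM, the share of a library's counts after TMM scaling, and a gene with 0 counts could lie up to 3 counts, or 0.0577 to 0.136 CPM by library, counting error only. Vgll3 was 285, 255 and 216 CPM in the Vgll3-labelled and 37.9, 54.3, 54.5 and 56.2 CPM in the Ccne1-labelled libraries. Ccne1 was 12.7, 15.1 and 17.0 CPM in the Vgll3-labelled and 6.73, 9.24, 18.3 and 16.7 CPM in the Ccne1-labelled libraries. Its log2 fold change (log2FC), which runs Vgll3-labelled over Ccne1-labelled here and below and is given ± SE, was 0.23 ± 0.34 (edgeR adjusted p = 0.609). Ccne1 RNA was thus not detectably higher in its own libraries, and the groups are called by their labels throughout. Trp53, the gene knocked out in both groups, had 66.9 to 75.4 CPM in the Vgll3-labelled and 63.1 to 69.7 CPM in the Ccne1-labelled libraries; the labels do not say which part of it is deleted, so counts over the whole gene do not check the knockout. Mesenchymal markers were high in both groups, 9 genes summing to 34807 to 41807 CPM in the Vgll3-labelled and 23337 to 28498 CPM in the Ccne1-labelled libraries. That sum held changes in both directions: Col1a1, Col1a2 and Pdgfrb were called higher in the Vgll3-labelled libraries (log2FC 1.57, 2.04 and 2.14), Vim, Pdgfra, Prrx1 and S100a4 lower (log2FC -1.68, -2.02, -1.52 and -0.54), and Thy1 and Twist1 were not called. Vim, the intermediate filament vimentin, was 4150 to 4624 CPM in the Vgll3-labelled and 12670 to 15753 CPM in the Ccne1-labelled libraries. Vgll3 replicate 3 was the library least like its group, with Pearson correlations across genes of 0.959 and 0.963 with replicates 1 and 2.

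Of the 42 genes, 41 had enough counts to be tested; Derl3, a derlin of the ER-associated degradation pathway, had 0 CPM in 3 of 3 Vgll3-labelled libraries and at most 0.0619 CPM, 2 counts, in the Ccne1-labelled ones. A gene was called when the edgeR quasi-likelihood test gave a Benjamini-Hochberg adjusted p under 0.05 over all 13740 genes tested. By this rule 25 genes (61.0%) were called, against 51.9% of all genes tested. In the Vgll3-labelled libraries 15 of them (36.6%) were higher and 10 (24.4%) lower, against 25.1% and 26.8% of all genes. The groups did not overlap for 24 genes (58.5%), against 55.7% of all genes, and 6 were called with at least a 2-fold difference, against 16.7% of all genes. As one list, these genes were therefore close to the background in how many differed. Their median absolute log2FC was 0.40, against 0.43 for all genes. Their median log2FC was 0.13, against 0.006 for all genes. With the median of all tested genes on the same chromosome taken off each gene, it was 0.005.

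Split by role, the counts were uneven. Targets of ATF4 and CHOP had a median log2FC of 1.09 with 6 of 7 (85.7%) higher. Chaperones and folding enzymes had a median of -0.29 with 7 of 14 (50%) lower and 1 (7.14%) higher. Genes of degradation and translocation had 3 higher (50%) and 0 lower of 6 tested. The ER stress sensors and their factors had 3 higher (42.9%) and 2 lower (28.6%) of 7. The kinase, factors and phosphatase subunits of the integrated stress response had 2 higher (28.6%) and 0 lower of 7. Of all genes tested, 25.1% were higher and 26.8% lower. The values of 28.6% lie near these shares, and a single gene moves the share of so small a role by much. The counts depend on how the roles were drawn. Atf5, itself an ATF4 and CHOP target and higher, was counted with the integrated stress response factors. So were Ddit3 and Ppp1r15a, which were not called. Of the other genes with CARE in the promoter outside the targets, Nupr1, also among these factors, was higher. Herpud1, counted with degradation, was not called. These groupings are counts of named genes and were not tested as sets. As the genes were chosen with earlier results of these data known, the uneven counts are no independent finding.

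**Figure D1:**
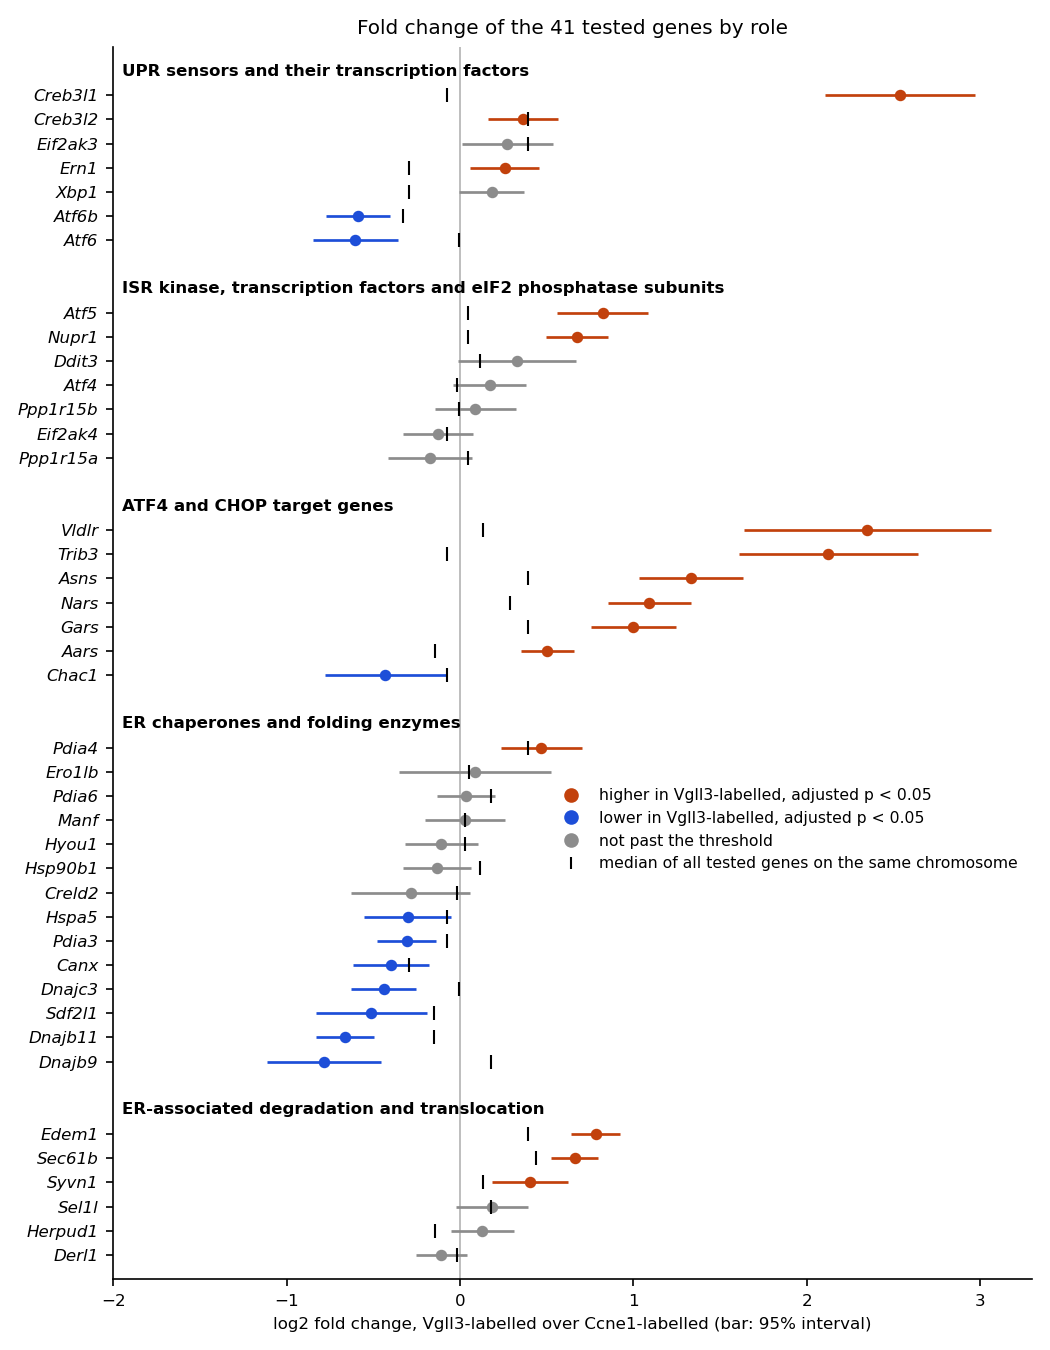
Log2 fold change, Vgll3-labelled over Ccne1-labelled, of the 41 tested genes grouped by role, with the 95% interval as a bar and the median of all tested genes on the same chromosome as a tick. The ATF4 and CHOP targets lie right of 0 except Chac1, and the chaperones that passed the threshold lie left of 0 except Pdia4.

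Among the ER stress sensors, RNA for both ATF6 proteins was lower, RNA for IRE1 was slightly higher and RNA for PERK was not called. Atf6, the sensor that travels to the Golgi and is cut there into a transcription factor (ENSMUSG00000026663, mm10 chromosome 1, 170704674 to 170867771), was 101, 79.3 and 76.1 CPM in the Vgll3-labelled and 117, 137, 130.3 and 134 CPM in the Ccne1-labelled libraries. Each Vgll3-labelled library lay below each Ccne1-labelled one, and Atf6 fell 1.52-fold (log2FC -0.60 ± 0.11, edgeR adjusted p = 0.00154). Its close relative Atf6b was 37.4, 38.0 and 44.7 CPM in the Vgll3-labelled and 57.5, 59.3, 61.4 and 62.4 CPM in the Ccne1-labelled libraries. It fell 1.503-fold, again with no overlap (log2FC -0.59 ± 0.08, edgeR adjusted p = 0.000414). Atf6b lies on chromosome 17, where the median of all 680 tested genes was -0.33, and Atf6 on chromosome 1, where it was -0.003. The part of such chromosome-wide shifts in the change of any gene was not tested.

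Ern1 (ENSMUSG00000020715, chromosome 11, 106394650 to 106487852) was 50.1, 42.2 and 42.9 CPM in the Vgll3-labelled and 34.0, 38.9, 39.0 and 38.8 CPM in the Ccne1-labelled libraries. The groups did not overlap but lay close together, at a log2FC of 0.26 ± 0.09 (edgeR adjusted p = 0.0359). The call ended without any single Ccne1-labelled library (edgeR adjusted p = 0.0516 to 0.0802), and without Vgll3 replicate 1 the log2FC was 0.17 (edgeR adjusted p = 0.151). Xbp1, whose transcript IRE1 splices into the form that encodes the active factor, was 83.25, 76.9 and 77.0 CPM in the Vgll3-labelled and 64.7, 64.1, 74.9 and 74.99 CPM in the Ccne1-labelled libraries. The groups did not overlap, yet Xbp1 was not called (log2FC 0.18 ± 0.08, edgeR adjusted p = 0.0912). Both genes lie on chromosome 11, where the median of all 1097 tested genes was -0.30. Eif2ak3, which encodes PERK, was 38.6, 50.03 and 53.6 CPM in the Vgll3-labelled and 39.3, 42.4, 35.9 and 39.0 CPM in the Ccne1-labelled libraries (log2FC 0.27 ± 0.12, edgeR adjusted p = 0.0749). Vgll3 replicate 1 lay inside the Ccne1-labelled range and replicates 2 and 3 above it. Without replicate 1 the log2FC was 0.40 and Eif2ak3 passed the threshold (edgeR adjusted p = 0.00716).

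The widest difference of all 41 tested genes was in Creb3l1, also known as OASIS (ENSMUSG00000027230, chromosome 2, 91982328 to 92024502), an ER membrane protein that is cut like ATF6 and is known in bone for switching on type I collagen. It was 188, 224 and 155 CPM in the Vgll3-labelled and 38.0, 28.2, 38.8 and 25.3 CPM in the Ccne1-labelled libraries. The lowest Vgll3-labelled library was far above the highest Ccne1-labelled one, and Creb3l1 rose 5.81-fold (95% interval 4.31 to 7.83; log2FC 2.54 ± 0.19, edgeR adjusted p = 3.2e-05). Creb3l2, the relative known for secretion in cartilage, was 132, 139 and 130.3 CPM in the Vgll3-labelled and 111, 88.0, 107 and 109 CPM in the Ccne1-labelled libraries. It rose by 0.37 on the log2 scale (SE 0.09, edgeR adjusted p = 0.00774), which is about the median of 0.39 of all 654 tested genes on its chromosome, 6. Col1a1, a type I collagen gene and mesenchymal marker, was 11480 to 14987 CPM in the Vgll3-labelled and 3596 to 5172 CPM in the Ccne1-labelled libraries, one of the 3 markers called higher of the 9 given above, of which 4 were called lower. The part of these marker differences in the differences of the stress response genes was not tested.

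**Figure D2:**
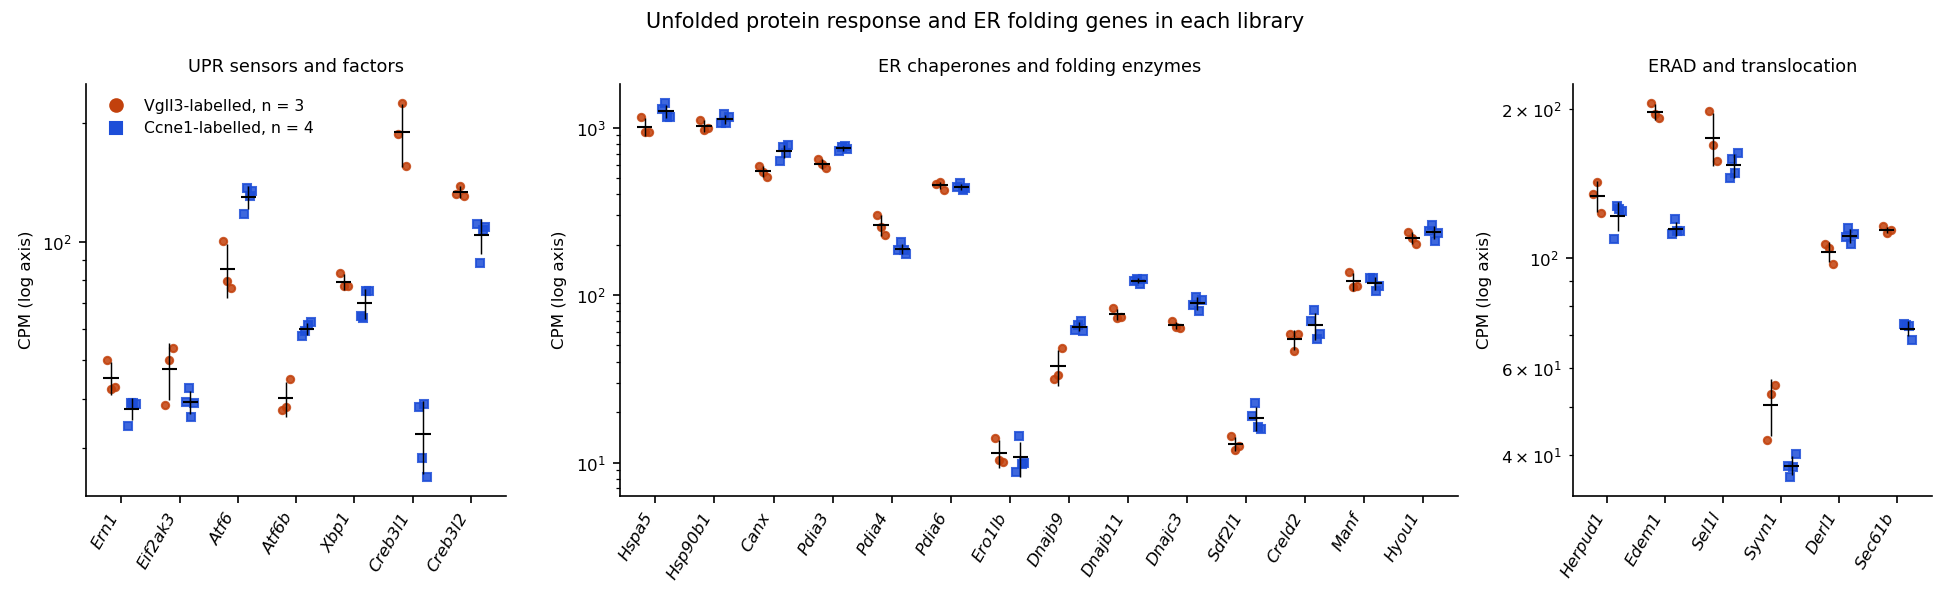
CPM on a log axis of each library for the sensors and factors of the unfolded protein response, the ER chaperones and folding enzymes, and the degradation and translocation genes, with mean and SD as cross and bar (n = 3 Vgll3-labelled, circles; n = 4 Ccne1-labelled, squares). Creb3l1 and Edem1 are well apart upwards and Atf6, Atf6b and Dnajb11 downwards, while Hsp90b1, Pdia6, Manf and Hyou1 overlap; Derl3, near 0, is not drawn.

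In the integrated stress response, RNA of the central factors ATF4 and CHOP was not called, while the related factors Atf5 and Nupr1 were higher. Atf4 (ENSMUSG00000042406, chromosome 15, 80255184 to 80257541) was 464, 457 and 432 CPM in the Vgll3-labelled and 408, 457, 383 and 355 CPM in the Ccne1-labelled libraries. Ccne1 replicate 2 reached the Vgll3-labelled range, and the log2FC of 0.17 (95% interval of the fold 0.972 to 1.305) did not pass the threshold (edgeR adjusted p = 0.153). Without that library it was 0.24 and just past it (edgeR adjusted p = 0.0461). Ddit3, which encodes CHOP (ENSMUSG00000025408, chromosome 10, 127290774 to 127296288), was low in both groups, at 11.6, 8.27 and 12.7 CPM in the Vgll3-labelled and 8.24, 8.62, 9.23 and 8.39 CPM in the Ccne1-labelled libraries. Vgll3 replicate 2 lay among the Ccne1-labelled libraries and the other Vgll3-labelled libraries above them (log2FC 0.33 ± 0.15, edgeR adjusted p = 0.0928). Without it the log2FC was 0.48 (edgeR adjusted p = 0.0140). A second gene model with the symbol Ddit3 overlapped this one and held 17 counts in all libraries together, so reads were hardly split between them.

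Atf5, a factor whose translation is controlled like that of ATF4 and whose gene is an ATF4 and CHOP target (ENSMUSG00000038539, chromosome 7, 44812256 to 44816658), was 269, 220.1 and 200.1 CPM in the Vgll3-labelled and 141, 140.4, 123 and 115 CPM in the Ccne1-labelled libraries. No library overlapped, and Atf5 rose 1.77-fold (log2FC 0.82 ± 0.12, edgeR adjusted p = 0.000426). Nupr1, a small chromatin-associated stress protein, was 78.0, 84.0 and 84.4 CPM in the Vgll3-labelled and 47.1, 57.0, 50.1 and 51.0 CPM in the Ccne1-labelled libraries. It also showed no overlap and rose 1.599-fold (log2FC 0.68 ± 0.08, edgeR adjusted p = 0.000153). The kinase gene Eif2ak4 overlapped between the groups (log2FC -0.13, edgeR adjusted p = 0.264). So did Ppp1r15b, the constitutive subunit of the eIF2 phosphatase (log2FC 0.09, edgeR adjusted p = 0.489). Ppp1r15a, or GADD34, the stress-induced subunit, was 171, 180.1 and 222 CPM in the Vgll3-labelled and 200.2, 242, 209 and 209 CPM in the Ccne1-labelled libraries (log2FC -0.17 ± 0.11, edgeR adjusted p = 0.208). It passed the threshold downwards without Vgll3 replicate 3 (log2FC -0.29, edgeR adjusted p = 0.0207).

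**Figure D3:**
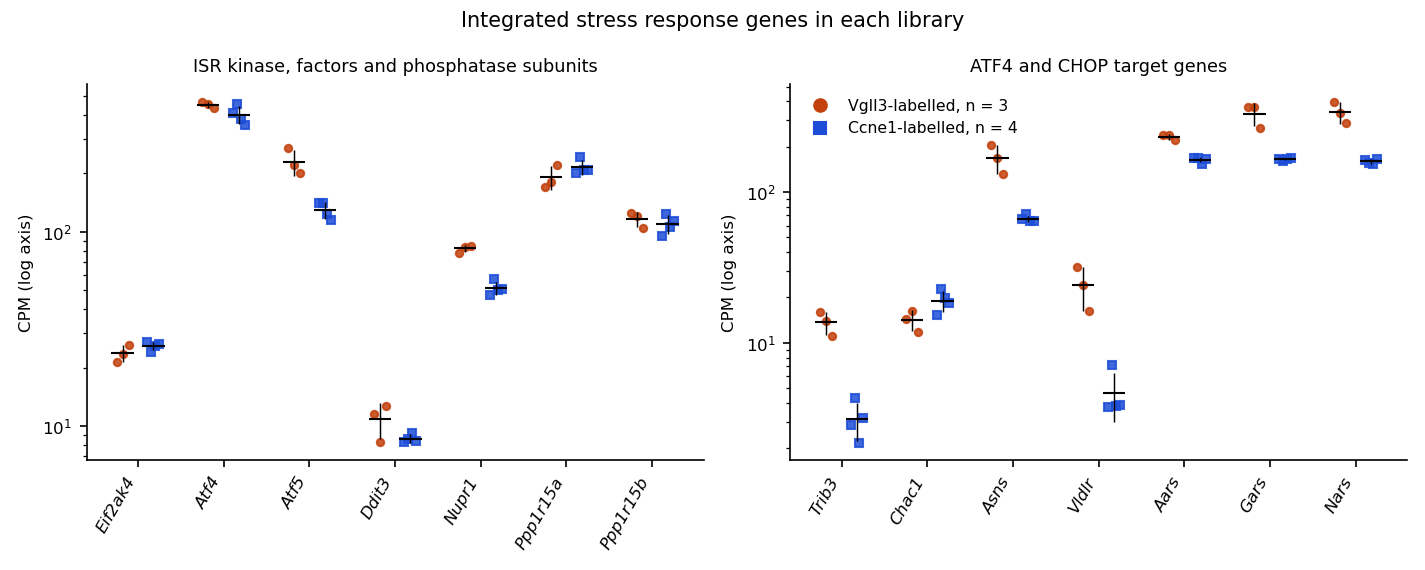
CPM on a log axis of each library for genes of the integrated stress response (left) and for ATF4 and CHOP targets (right), with mean and SD as cross and bar (n = 3 Vgll3-labelled, circles; n = 4 Ccne1-labelled, squares). Atf4 and Ddit3 overlap between the groups, while Trib3, Asns, Vldlr, Aars, Gars and Nars lie apart; Chac1 is the one target that was called lower.

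Downstream of ATF4 and CHOP, RNA of the asparagine synthesis gene and of the 3 tRNA synthetase genes was higher in the Vgll3-labelled libraries. Asns, asparagine synthetase, whose promoter is printed above (ENSMUSG00000029752, chromosome 6, 7675169 to 7693254), was 204, 168 and 131 CPM in the Vgll3-labelled and 66.8, 71.2, 64.4 and 64.1 CPM in the Ccne1-labelled libraries. The Ccne1-labelled libraries lay within a few CPM of each other and well below all Vgll3-labelled ones, and Asns rose 2.52-fold (log2FC 1.33 ± 0.13, edgeR adjusted p = 7e-05). Nars, which charges tRNA with asparagine, was 398, 335 and 287 CPM in the Vgll3-labelled and 164, 156, 153 and 165 CPM in the Ccne1-labelled libraries (log2FC 1.09 ± 0.11, edgeR adjusted p = 5.7e-05). Gars, for glycine, was 364, 364 and 268 CPM in the Vgll3-labelled and 166, 162, 166 and 169 CPM in the Ccne1-labelled libraries (log2FC 1.00 ± 0.11, edgeR adjusted p = 0.000103). Neither overlapped between the groups, and the Ccne1-labelled libraries of each lay close together. Aars, for alanine, rose 1.42-fold and was 239, 240 and 220.4 CPM in the Vgll3-labelled and 168, 169, 155 and 167 CPM in the Ccne1-labelled libraries (log2FC 0.50 ± 0.07, edgeR adjusted p = 0.000334). Asns and Gars lie on chromosome 6 and Nars on chromosome 18, with chromosome medians of 0.39 and 0.29. With the chromosome median of each gene taken off, the median log2FC over the 7 targets was 0.81.

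The widest changes among the targets were in Vldlr and Trib3. Trib3, a pseudokinase that restrains ATF4 and CHOP (ENSMUSG00000032715, chromosome 2, 152337422 to 152344032), was 16.0, 14.02 and 11.1 CPM in the Vgll3-labelled and 2.87, 4.29, 2.17 and 3.16 CPM in the Ccne1-labelled libraries. It rose 4.36-fold (95% interval 3.05 to 6.23; log2FC 2.12 ± 0.23, edgeR adjusted p = 9.9e-05). Vldlr, a lipoprotein receptor known as a target of the PERK branch (ENSMUSG00000024924, chromosome 19, 27216484 to 27254231), was 31.8, 24.1 and 16.3 CPM in the Vgll3-labelled and 3.78, 7.16, 3.84 and 3.89 CPM in the Ccne1-labelled libraries. Ccne1 replicate 2 had the highest Vldlr of its group, yet the rise was 5.10-fold (95% interval 3.11 to 8.35; log2FC 2.35 ± 0.31, edgeR adjusted p = 0.000527). With each single library left out in turn, its log2FC lay between 2.09 and 2.65. Chac1, an enzyme that breaks down glutathione and a known target of ATF4, went the other way. It was 14.3, 16.4 and 11.8 CPM in the Vgll3-labelled and 15.3, 22.7, 19.7 and 18.5 CPM in the Ccne1-labelled libraries. The groups overlapped and the fall was small (log2FC -0.43 ± 0.15, edgeR adjusted p = 0.0419). That call ended without Ccne1 replicate 2, 3 or 4 (edgeR adjusted p = 0.104, 0.0911 and 0.0707) and without Vgll3 replicate 1 or 3 (0.0792 and 0.102), and held without Ccne1 replicate 1 or Vgll3 replicate 2.

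Summed over the 7 targets, the level was 1268, 1162 and 946 CPM in the Vgll3-labelled and 587, 592, 564 and 590 CPM in the Ccne1-labelled libraries. Vgll3 replicate 3 was the lowest of the Vgll3-labelled libraries for 7 of 7 targets, and for the 6 higher targets the nearest to the Ccne1-labelled libraries. The same library had the largest sum of endothelial markers: over 5 markers it was 27.3, 50.2 and 211 CPM in the Vgll3-labelled and 109, 37.7, 68.9 and 41.9 CPM in the Ccne1-labelled libraries, and 0 of the 5 were called. Most of it was Pecam1, at up to 184 CPM in the Vgll3-labelled and up to 71.3 CPM in the Ccne1-labelled libraries. Kdr was also highest in Vgll3 replicate 3 (7.36 CPM, against 6.05 in Ccne1 replicate 1). Cdh5, Tek and Emcn were instead highest in Ccne1 replicate 1. They had 26.2, 2.14 and 3.09 CPM there, against 17.2, 0.602 and 1.87 in Vgll3 replicate 3. The part of endothelial RNA in the lower target RNA of Vgll3 replicate 3 was not tested. In bulk RNA of sorted cells, more or fewer cells of a type and more or less RNA per cell cannot be told apart.

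Of the 14 chaperones and folding enzymes, 7 fell, by 1.72-fold at most, 1 rose and 6 were not called. Their sum over 14 genes was 4924, 4347 and 4254 CPM in the Vgll3-labelled and 5069, 5593, 4978 and 5169 CPM in the Ccne1-labelled libraries, with no overlap. The main ER chaperone, Hspa5 or BiP (ENSMUSG00000026864, chromosome 2, 34771970 to 34777547), was 1163, 937 and 944 CPM in the Vgll3-labelled and 1289, 1398, 1163 and 1153 CPM in the Ccne1-labelled libraries. Vgll3 replicate 1 lay inside the Ccne1-labelled range, and Hspa5 passed the threshold narrowly, 1.23-fold lower (log2FC -0.30 ± 0.11, edgeR adjusted p = 0.0453). The call ended without any single Ccne1-labelled library (edgeR adjusted p = 0.0528 to 0.110) and without Vgll3 replicate 2 or 3 (edgeR adjusted p = 0.145 and 0.114), but not without Vgll3 replicate 1 (edgeR adjusted p = 0.0119). It also ended with median-of-ratios scaling (edgeR adjusted p = 0.0617) and with no filter on low counts (edgeR adjusted p = 0.0707).

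Its co-chaperones of the DnaJ family differed more. Dnajb9, or ERdj4, a known target of IRE1 and XBP1 (ENSMUSG00000014905, chromosome 12, 44205559 to 44210326), was 31.6, 33.1 and 48.3 CPM in the Vgll3-labelled and 62.2, 66.1, 69.6 and 61.3 CPM in the Ccne1-labelled libraries. It fell 1.72-fold (log2FC -0.78 ± 0.14, edgeR adjusted p = 0.00197). Dnajb11, or ERdj3, whose promoter holds ERSE-II (ENSMUSG00000004460, chromosome 16, 22857845 to 22879634), was 83.9, 72.5 and 73.8 CPM in the Vgll3-labelled and 122, 124, 116 and 125 CPM in the Ccne1-labelled libraries. It fell 1.59-fold (log2FC -0.67 ± 0.07, edgeR adjusted p = 0.000116). Neither gene overlapped between the groups, and Dnajb9 was nearest to the Ccne1-labelled libraries in Vgll3 replicate 3. Sdf2l1, which works with ERdj3, was 14.3, 11.9 and 12.6 CPM in the Vgll3-labelled and 19.1, 22.7, 16.3 and 15.9 CPM in the Ccne1-labelled libraries (log2FC -0.51 ± 0.14, edgeR adjusted p = 0.0143). It lost its call without Vgll3 replicate 2 (edgeR adjusted p = 0.0530). Dnajc3, or P58IPK, an inhibitor of PERK that also acts as an ER co-chaperone, was 69.7, 64.5 and 63.7 CPM in the Vgll3-labelled and 86.8, 97.6, 80.3 and 93.3 CPM in the Ccne1-labelled libraries. It did not overlap between the groups and fell by 0.44 on the log2 scale (SE 0.08, edgeR adjusted p = 0.00207).

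Of the lectin pathway for glycoproteins, Canx, calnexin, was 591, 545 and 508 CPM in the Vgll3-labelled and 632, 761, 707 and 786 CPM in the Ccne1-labelled libraries. It fell by 0.40 on the log2 scale (SE 0.10, edgeR adjusted p = 0.00808) and lies on chromosome 11, whose median was -0.30. Pdia3, the disulfide isomerase that works with it, was 647, 606 and 570.2 CPM in the Vgll3-labelled and 722, 763, 773 and 748 CPM in the Ccne1-labelled libraries, and fell by 0.31 on the log2 scale (SE 0.07, edgeR adjusted p = 0.00790). Neither overlapped between the groups. Pdia4, another disulfide isomerase, was the one folding gene called higher. It was 301, 256 and 227 CPM in the Vgll3-labelled and 186, 207, 186 and 176 CPM in the Ccne1-labelled libraries (log2FC 0.47 ± 0.10, edgeR adjusted p = 0.00468), and its chromosome, 6, had the median of 0.39. The other 6 folding genes were not called and overlapped between the groups. Their log2FC was -0.13 for Hsp90b1, the ER form of HSP90, -0.28 for the isomerase-like Creld2 and -0.11 for Hyou1, the nucleotide exchange factor of BiP. It was 0.03 for the secreted factor Manf, 0.04 for the disulfide isomerase Pdia6 and 0.09 for the oxidase Ero1lb. Of the 8 tested genes with ERSE in the promoter, 3 were called lower (Hspa5, narrowly, Canx and Dnajc3), 1 higher (Syvn1) and 4 not called. Among all 17 tested genes with ERSE, these included, 29.4% were lower and 35.3% higher. The shares of all genes tested were 26.8% lower and 25.1% higher, and a single gene moves the share of so few genes by much.

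Of the 6 tested genes that move proteins into the ER or take misfolded ones out, 3 rose and 3 were not called. Edem1, which marks glycoproteins for degradation (ENSMUSG00000030104, chromosome 6, 108828641 to 108859356), was 205, 195 and 191 CPM in the Vgll3-labelled and 112, 120.0, 113 and 114 CPM in the Ccne1-labelled libraries. The libraries of each group lay close together and Edem1 rose 1.72-fold (log2FC 0.78 ± 0.06, edgeR adjusted p = 2.5e-05), the smallest adjusted p of the 41 genes. Sec61b, a subunit of the translocation channel (ENSMUSG00000053317, chromosome 4, 47474658 to 47483242), was 116, 112 and 114 CPM in the Vgll3-labelled and 73.6, 73.2, 73.05 and 68.3 CPM in the Ccne1-labelled libraries. It rose 1.58-fold (log2FC 0.66 ± 0.06, edgeR adjusted p = 4.4e-05). The chromosome medians were 0.39 for Edem1 and 0.44, over 829 genes, for Sec61b.

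Syvn1, the ubiquitin ligase HRD1, was 42.9, 53.2 and 55.4 CPM in the Vgll3-labelled and 38.2, 36.2, 38.0 and 40.3 CPM in the Ccne1-labelled libraries. It rose by 0.40 on the log2 scale (SE 0.10, edgeR adjusted p = 0.00713). Its partner Sel1l was 198, 169 and 157 CPM in the Vgll3-labelled and 145, 159, 148 and 163 CPM in the Ccne1-labelled libraries. It was not called (log2FC 0.18 ± 0.09, edgeR adjusted p = 0.123), though it passed without Vgll3 replicate 3 (log2FC 0.26, edgeR adjusted p = 0.0335). Herpud1, with CARE and ERSE-II both in its promoter, was 134, 142 and 123 CPM in the Vgll3-labelled and 109, 127, 126 and 124 CPM in the Ccne1-labelled libraries (log2FC 0.13 ± 0.08, edgeR adjusted p = 0.204). Derl1, a derlin of the exit channel, was also not called (log2FC -0.11 ± 0.06, edgeR adjusted p = 0.194). The groups overlapped for Herpud1, Sel1l and Derl1.

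**Figure D4:**
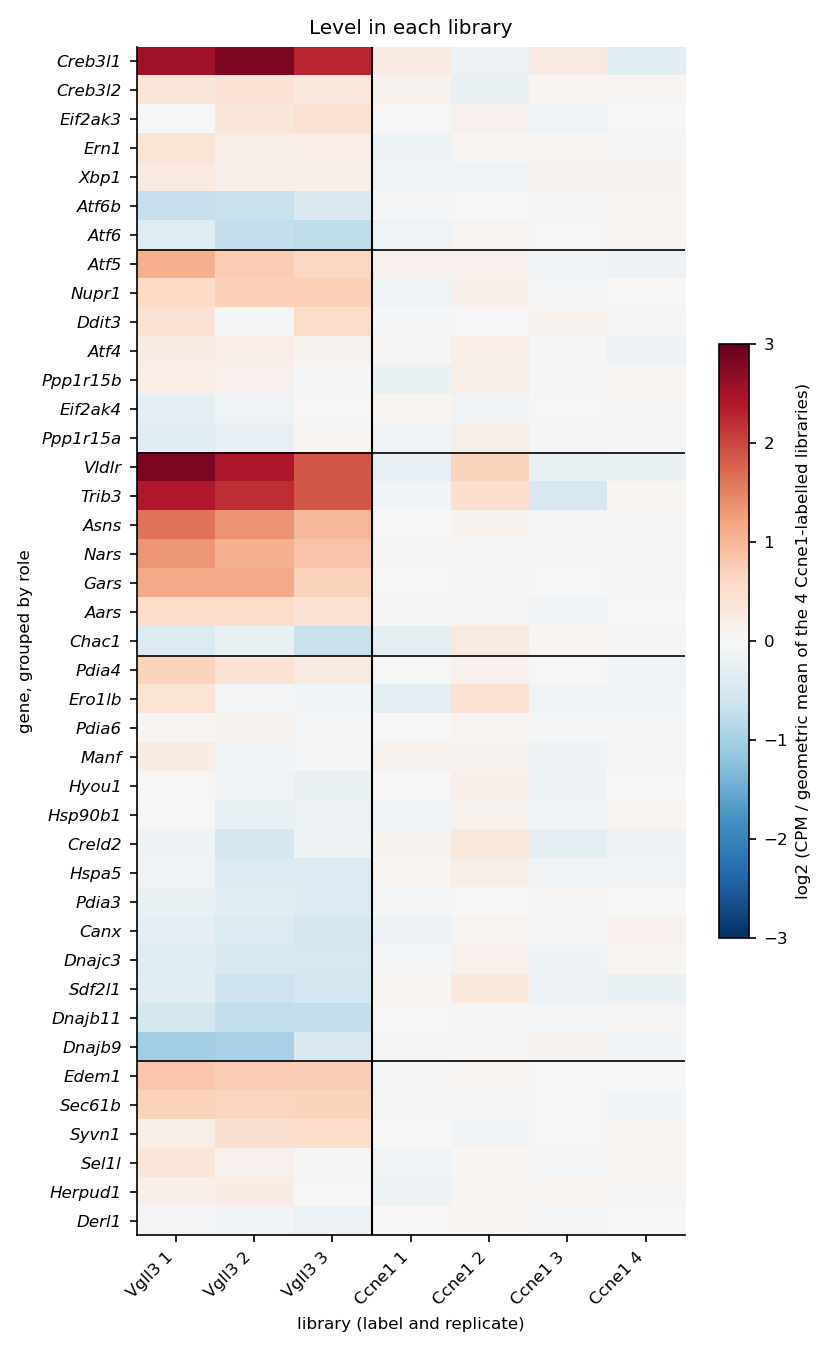
Level of each of the 41 tested genes in each library, as log2 of CPM over the geometric mean of the 4 Ccne1-labelled libraries, with genes grouped by role and Vgll3-labelled libraries on the left (colour scale from -3 to 3). Among the Vgll3-labelled libraries the higher targets of ATF4 and CHOP are palest in replicate 3, while Edem1, Sec61b and Nupr1 are even across the 3.

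Within a group the genes differed in how steady they were. Over the 7 ATF4 and CHOP targets the median coefficient of variation between libraries was 16.8% in Vgll3-labelled libraries, against 4.92% in Ccne1-labelled ones. The targets did not share this difference. Asns (21.8%, against 4.92%), Gars (16.8%, against 1.82%) and Nars (16.4%, against 3.63%) varied more in Vgll3-labelled libraries. Trib3 (17.8%, against 28.3%) and Vldlr (32.4%, against 35.6%) varied more in Ccne1-labelled ones, and Aars and Chac1 were about equal. Over the 14 chaperones and folding enzymes the median was 8.90% in Vgll3-labelled libraries, against 8.63% in Ccne1-labelled ones. Of the 25 called genes, Vgll3 replicate 1 was the highest Vgll3-labelled library for 16, replicate 3 the lowest for 16 and the one nearest to the Ccne1-labelled libraries for 13. Of these 25 calls, 19 held under each of 13 other ways of processing the counts or choosing libraries.

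Per length of exon, the ranking of these genes was similar in both groups apart from a few. Hsp90b1 had a mean level of 254 CPM per kb in Vgll3-labelled libraries, against 278 in Ccne1-labelled ones, and Hspa5 had 240 CPM per kb in Vgll3-labelled libraries, against 296 in Ccne1-labelled ones. With Pdia3 and Atf4 they held the first 4 places in each group, and Eif2ak4, Vldlr, Ero1lb and Derl3 were among the lowest. Creb3l1 stood 12th in the Vgll3-labelled libraries, at 72.6 CPM per kb, and 32nd in the Ccne1-labelled ones, at 12.5 CPM per kb. The next largest difference in rank was that of Dnajb11, which stood 24th in Vgll3-labelled libraries and 14th in Ccne1-labelled ones. Ddit3, at 6.33 CPM per kb in Vgll3-labelled libraries, against 5.03 in Ccne1-labelled ones, was the lowest of the transcription factor genes. Neighbours in such a list often lie within each other's spread, and exon length is that of all annotated exons.

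Other genes of the same pathways were counted from a list of 79, of which 78 were tested. In all, 30 (38.5%) were higher and 22 (28.2%) lower in the Vgll3-labelled libraries, against 25.1% and 26.8% of all genes. Of the further ATF4 targets, 16 of 23 (69.6%) were higher, 1 was lower and 6 were not called, with a median log2FC of 0.46. Both lists of ATF4 targets were chosen with earlier results of these data known, so this one is no independent check of the other. Slc7a11, the cystine transporter subunit, was 42.5, 29.1 and 20.7 CPM in the Vgll3-labelled and 4.78, 9.05, 6.69 and 6.14 CPM in the Ccne1-labelled libraries (log2FC 2.20 ± 0.28, edgeR adjusted p = 0.000512). Slc7a5, the large neutral amino acid transporter LAT1, was 222, 250 and 192 CPM in the Vgll3-labelled and 63.0, 39.5, 46.2 and 49.7 CPM in the Ccne1-labelled libraries (log2FC 2.16 ± 0.16, edgeR adjusted p = 2.1e-05). The one of these 23 that fell was Eif4ebp1, the inhibitor of cap-dependent translation (log2FC -0.32 ± 0.10, edgeR adjusted p = 0.0227). Its call ended without Vgll3 replicate 2 (edgeR adjusted p = 0.0862). Atf3, an ATF4 target counted with the stress factors below, was also lower. The higher ones included the serine synthesis and folate pathway genes Psat1, Phgdh, Shmt2 and Mthfd2 and 6 further tRNA synthetase genes (Tars, Wars, Yars, Iars, Lars and Eprs), while Sars, Mars1 and Cars were not called.

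Further folding genes showed no common direction, with 7 higher (36.8%), 6 lower (31.6%) and 6 not called of 19 tested and a median of 0.02. Mogs, the first glucosidase of glycan trimming (log2FC 0.65), and Fkbp14, a prolyl isomerase that acts on collagen (log2FC 0.59), were higher. Sdf2, a relative of Sdf2l1 (log2FC -0.77), and P4hb, a disulfide isomerase and subunit of collagen prolyl hydroxylase (log2FC -0.30), were lower. Mogs and Fkbp14 lie on chromosome 6, whose median was 0.39, and Sdf2 and P4hb on chromosome 11, whose median was -0.30. Of 27 further degradation, translocon and secretory genes, 5 (18.5%) were higher and 10 (37.0%) lower. The channel subunit Sec61a1 (log2FC 0.97) and the signal peptidase subunit Spcs3 (log2FC 0.88) were higher, and the ubiquitin-conjugating enzyme Ube2g2 (log2FC -0.66) and Derl2 (log2FC -0.48) lower. Spcs3 came nearest to the Ccne1-labelled libraries in Vgll3 replicate 3, with 606, 463 and 294 CPM in the Vgll3-labelled and 227, 240.4, 247 and 275 CPM in the Ccne1-labelled libraries. Of 9 further kinases and stress factors, 2 (22.2%) were higher and 5 (55.6%) lower. Cebpb, a C/EBP factor that can pair with ATF4 and CHOP, was 188, 123 and 125 CPM in the Vgll3-labelled and 555, 782, 614 and 522 CPM in the Ccne1-labelled libraries (log2FC -2.09 ± 0.20, edgeR adjusted p = 0.000104). Atf3, another ATF4 target and also an early response gene, was lower too (log2FC -0.67 ± 0.17, edgeR adjusted p = 0.0115). Creb3, a relative of Creb3l1, was called higher (log2 fold change 0.45), which is about the median of 0.44 of its chromosome, 4. Mbtps1, the protease that cuts ATF6 and the CREB3 proteins, was called at a log2FC of 0.20 (edgeR adjusted p = 0.0315), but the call ended when a single library was left out, be it replicate 1, 2 or 3 of Ccne1 or 1 or 2 of Vgll3, with edgeR adjusted p = 0.0631 to 0.124.

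**Figure D5:**
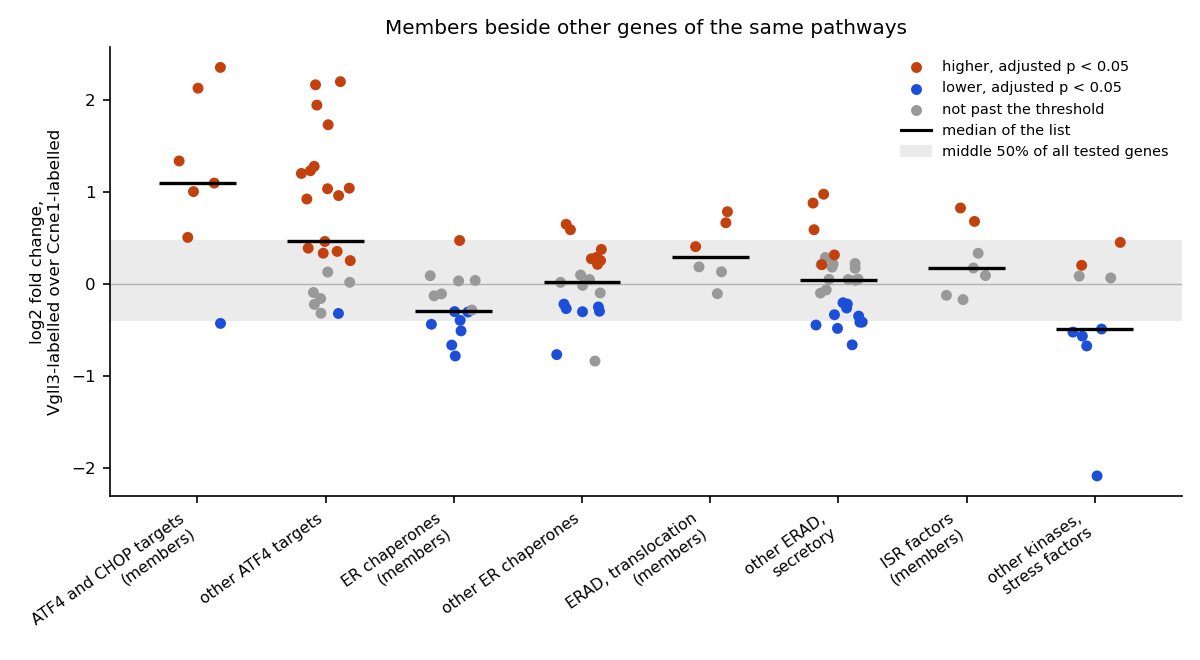
Log2 fold change, Vgll3-labelled over Ccne1-labelled, of the genes described here beside the other genes counted for the same roles; each point is a gene, the black line is the median of the list and the grey band holds the middle 50% of all tested genes. Both lists of ATF4 targets have medians above 0, at 1.09 and 0.46, and the medians of the other lists lie between -0.49 and 0.29.

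Markers of other cells and of handling were read beside these results. Macrophage and monocyte markers summed to 12.3 to 23.9 CPM in the Vgll3-labelled and 59.5 to 80.1 CPM in the Ccne1-labelled libraries over 9 genes. In the Ccne1-labelled libraries most of this was Cd14, the 1 marker called, at 4.31 to 7.84 CPM in the Vgll3-labelled and 51.9 to 69.3 CPM in the Ccne1-labelled libraries. Csf1r, Cd68, Lyz2, Itgam and Ptprc were not called and overlapped between the groups. Adgre1, Fcgr1 and Mrc1 were under 1 CPM in every library. B cell and plasma cell markers, which matter here because plasma cells hold much ER RNA, summed to at most 4.99 CPM in any library over 8 genes, with Tnfrsf17 at 0 in every library. T and NK cell markers summed to at most 2.33 CPM, neutrophil markers to at most 0.343 CPM and epithelial markers to at most 4.73 CPM, with Krt5 at 0 in every library and Krt8 called lower. The most abundant of these markers were Cd79a for B cells, Trac for T cells, Csf3r for neutrophils and Krt8 for epithelial cells. Dissociation stress genes summed to 11216 to 14966 CPM in the Vgll3-labelled and 8734 to 11643 CPM in the Ccne1-labelled libraries, and of 11 genes Jun, the most abundant, Egr1 and Ier2 were called higher and Atf3 lower. Their part in the differences of the stress response genes was not tested, nor was that of the difference in Cd14.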

How the data were processed

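PolyA RNA was extracted with TRIzol and sequenced, per the labels' protocols, and sample titles gave groups and replicate numbers. Estimated counts of each Ensembl gene in 7 libraries were deposited unscaled, and the authors made them with Salmon and build mm10, as the submitters' processing notes name them, with no version, annotation or strand setting stated there. Overlapping genes can therefore share reads. Of the counts, 0 needed rounding.

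Genes were filtered with filterByExpr, scaled with TMM and tested with the robust quasi-likelihood F test of edgeR 4.0.16 (R 4.3.3), with the model as the only term and Benjamini-Hochberg adjustment over 13740 genes. The SE is the log2 fold change over the square root of F. The biological coefficient of variation was 20.7%. Within groups, library pairs gave chi-square values of 11.7 to 88.9 for each degree of freedom, so none were copies. The script was checked on simulated counts. Symbols, coordinates and exon lengths are from GENCODE for GRCm38, the build of mm10.

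Alternatives were median-of-ratios scaling, library totals only, no filter on low counts, DESeq2 1.42.0, limma-voom 3.58.1, a replicate block and leaving out each library. The 42 genes and the lists beside them were chosen with earlier results of these data known. The genes named are all 42, both overexpressed genes, the up to 2 called genes per direction furthest apart in each list of other pathway genes, and the most abundant and the called markers. Further pathway genes were named after their values were seen.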

Additional observations from a re-analysis of the deposited data

Results flagged for a closer look

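In groups of 4 libraries, a lowest or highest library was singled out when its gap to the nearest other library, divided by the range of the group, exceeded the 95% value of Dixon's test. This was the case for 6 of the 41 tested genes in the Ccne1-labelled libraries, where chance gives about 5%; the Vgll3-labelled group of 3 is too small for it. Ern1, the IRE1 gene, was low in Ccne1 replicate 1 (34.0 CPM, the others 38.8 to 39.0; ratio 0.9515), and without that library Ern1 was not called, as given above. Vldlr, the lipoprotein receptor, was high in Ccne1 replicate 2 (7.16 CPM, the others 3.78 to 3.89; ratio 0.9671). Sec61b was low in Ccne1 replicate 4 (68.3 CPM; ratio 0.9016), Aars in replicate 3 (155 CPM; ratio 0.865), Herpud1 in replicate 1 (109 CPM; ratio 0.8419) and Creb3l2 in replicate 2 (88.0 CPM; ratio 0.8373). Vldlr, Sec61b, Aars and Creb3l2 stayed called, and Herpud1 not called, with each library left out in turn. The 6 cases fell on 4 different libraries.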

How the results depend on the processing

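The counts of genes called higher (15) and lower (10) stayed within 1.5 times under the other scalings, DESeq2, limma-voom and no filter on low counts. With each library left out in turn, 14 to 16 were higher and 8 to 9 lower, with a median log2 fold change of 0.08 to 0.18. The other pathway genes gave 22 to 35 higher and 16 to 23 lower, and all genes 6023 to 7334 calls. Of 533 values (41 genes under 13 alternatives), 500 kept direction and side of the threshold, 25 over 6 genes (Hspa5, Ern1, Chac1, Canx, Pdia3 and Sdf2l1) lost the call and 5 over 5 genes (Atf4, Eif2ak3, Ddit3, Ppp1r15a and Sel1l) gained one. The other 3 changed sign, all in genes that were never called: Manf was -0.018 without Ccne1 replicate 3 and -0.082 without Vgll3 replicate 1 (range -0.082 to 0.085), and Ero1lb was -0.091 without Vgll3 replicate 1 (range -0.091 to 0.27). The labels do not say that replicate numbers mark a shared batch. Deviations of same-numbered libraries from their group means correlated at -0.151, -0.167 and -0.103, so they gave no sign of pairing. Deviations within groups of 3 and 4 libraries depend on each other, so these values cannot exclude it. With the replicate number as a block, 14 genes were higher and 6 lower, 19 other pathway genes were higher and 11 lower, and 4841 genes in all were called, against 7133. The block ended the calls of Ern1, Chac1, Hspa5, Canx and Pdia3, with edgeR adjusted p between 0.0811 and 0.150, and 4 of the 14 chaperones and folding enzymes were then lower, against 7. The block drops residual degrees of freedom and leaves Ccne1 replicate 4 with no partner. With 3 and 4 libraries a group, small differences such as those of Atf4, Ddit3 and Xbp1 stay near the threshold, and the low counts of Ddit3, Trib3 and Ero1lb limit their precision.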
